A study of Homo sapiens with 46 samples.

Results

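One day of Ku80 depletion was examined in HCT116, a human colon carcinoma cell line, by comparing 4 of the 46 RNA sequencing libraries of the series. The cells were Ku80-AID clones, in which Ku80 carries an auxin-inducible degron. In the treated group, 100 µM indole-3-acetic acid (IAA, the auxin that triggers degradation of the tagged protein) and 0.5 µg/mL doxycycline were in the medium for 1 day, and the control group received DMSO. Each group held 1 library of clone 1 and 1 of clone 9, so the same clones stood in both arms and the comparison was paired by clone. Both groups share the degron background, and the effects of IAA, of doxycycline and of Ku80 loss cannot be told apart between them. The 1-day response was set beside other groups: the same line after 2 days of IAA or DMSO (clones 1, 7 and 9), after 2 days of a CDK4/6 inhibitor with or without IAA (clones 1 and 9), and Ku86flox/- HCT116 cells with a 4-hydroxytamoxifen-driven Cre recombinase, which lose the Ku80 gene without IAA or doxycycline, with the same cells without Cre as a further control. The remaining degron groups entered the fit to share its estimate of spread, and the search for genes that resemble EIF3B. They were 4 and 6 days of IAA and 4 days of the inhibitor with or without IAA (clones 1, 7 and 9 in each), and MAVS-knockout clones 1, 13 and 15 with DMSO or IAA for 4 days, whose clones had terms of their own in the fit.

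Ku is the ring-shaped dimer of Ku70 and Ku80. It threads onto DNA ends, recruits the kinase DNA-PKcs and starts repair by non-homologous end joining, and it also binds structured RNA. Human cells, unlike mouse cells, need Ku to survive, and the series was set up to follow innate immune responses to RNA after Ku loss. The 1-day samples address which transcripts differ early, before the later time points.

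The 4 libraries held 14517500 to 18165300 estimated counts, and 23947 to 25521 genes had at least 1 count. Mitochondrially encoded genes took 4.878% to 5.493% of counts and ribosomal protein genes 3.904% to 4.601%. The ribosomal protein share was lower with IAA in both clones (4.601% against 4.032% in clone 1, 4.096% against 3.904% in clone 9), and 2 libraries against 2 cannot give an exact permutation p below 1/3. Of 16 colon epithelial markers, 10 reached 1 CPM (counts scaled to the normalised library total) in every library, with a summed level of 2587 to 3017 CPM. CDX1, CEACAM5, CEACAM6 and TFF3 had 0 counts in all 4. The 16 blood and stromal markers summed to 20.2 to 31.48 CPM, and 3 of them reached 1 CPM in each library. Of these markers, COL1A1 read 17.3 and 15.6 CPM with DMSO and 27.1 and 21.3 CPM with IAA in clones 1 and 9. PTPRC, PECAM1, COL1A2 and DCN were at 0. XRCC5, the gene of Ku80, read 398 and 336 CPM with DMSO and 343 and 329 CPM with IAA in clones 1 and 9 (log2 change -0.12 ± 0.16 SE, edgeR adjusted p = 1). IAA acts on the protein, so this mRNA is no check of depletion.

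After 1 day, 107 of 18877 genes differed between IAA and DMSO (0.567% of genes tested). Of these, 67 rose (0.355%) and 40 fell (0.212%), at an edgeR quasi-likelihood adjusted p below 0.05 with the clone as a term. The deepest falls were in EIF3B, CYP24A1, MRPS35, MYC, CAV1 and CAD, and the highest rises among named genes in C11orf52, CYP1B1, EGR1 and MIR22HG. Effects were moderate: 16 genes rose and 5 fell at least 2-fold, the median change was 0.78 on the log2 scale among rises and -0.70 among falls, and no called gene changed by less than 0.43. For all 107, both IAA libraries stood on the same side of both DMSO libraries. That order alone is common, since 27.3% of all genes tested had both IAA libraries above both DMSO libraries and 25.7% had both below. CPM are relative to the library total, so fewer transcripts per cell and fewer cells of a kind cannot be told apart.

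The 2 clones moved together. Over the 9996 genes of at least 10 CPM, the IAA-minus-DMSO log2 difference of clone 1 correlated with that of clone 9 (r = 0.784), and 79.1% of these genes had the same direction in both. This is a description across genes, which are not independent replicates.

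**Figure D1:**
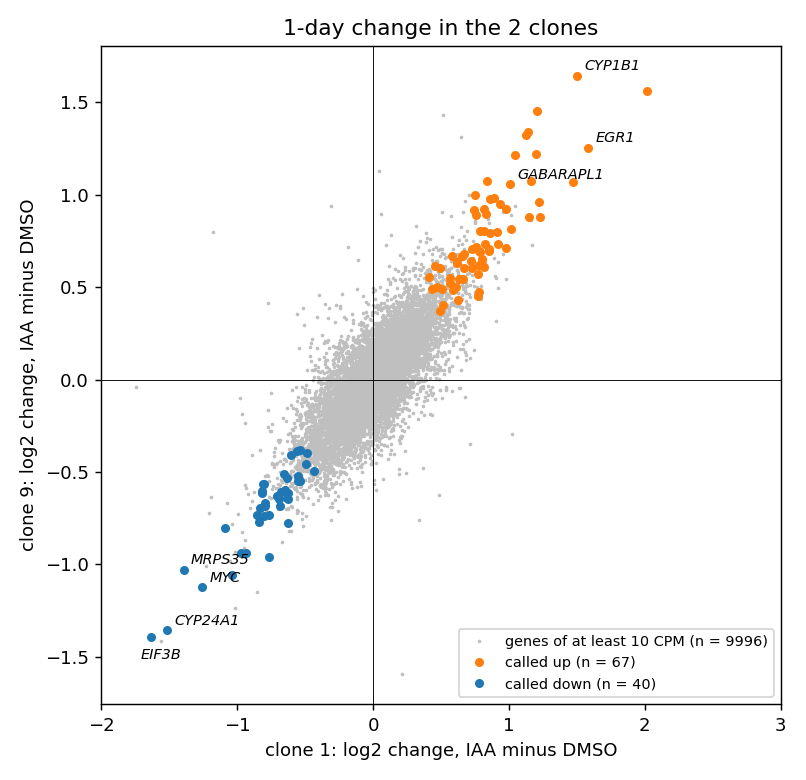
The log2 difference between IAA and DMSO, from log2(CPM + 0.5), is plotted for clone 1 (horizontal) against clone 9 (vertical). Grey points are the 9996 genes of at least 10 CPM, orange points the 67 genes called up and blue points the 40 called down. All called genes lie in the 2 quadrants where both clones agree in sign.

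Direction followed the level of a gene. The 561 genes of at least 300 CPM had a median log2 change of -0.17, with 67.6% of them lower in both IAA libraries and 9.45% higher in both. Genes of 10 to 50 CPM had a median of 0.03, with 26.8% lower and 35.6% higher. Called rises had a median level of 33.46 CPM and called falls of 129.5 CPM. Gene lists of abundant transcripts are therefore read below against genes of like level as well as against all genes.

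The number of calls rested on the shared estimate of spread. Without the clone term, 22 of the rises and 13 of the falls passed (0.117% and 0.0689% of genes tested), all of them within the 107. When each of the 4 libraries was left out in turn, 4 to 8 genes passed. EIF3B, GABARAPL1 and KIAA0513 passed in all 4 of these fits, CAD, MRPS35 and MYC in 3, CHRNB1 in 2, CAV1, HS3ST1 and WBP1L in 1, and the other 97 in none. An arm reduced to 1 library was assumed to vary like the other groups.

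**Figure D2:**
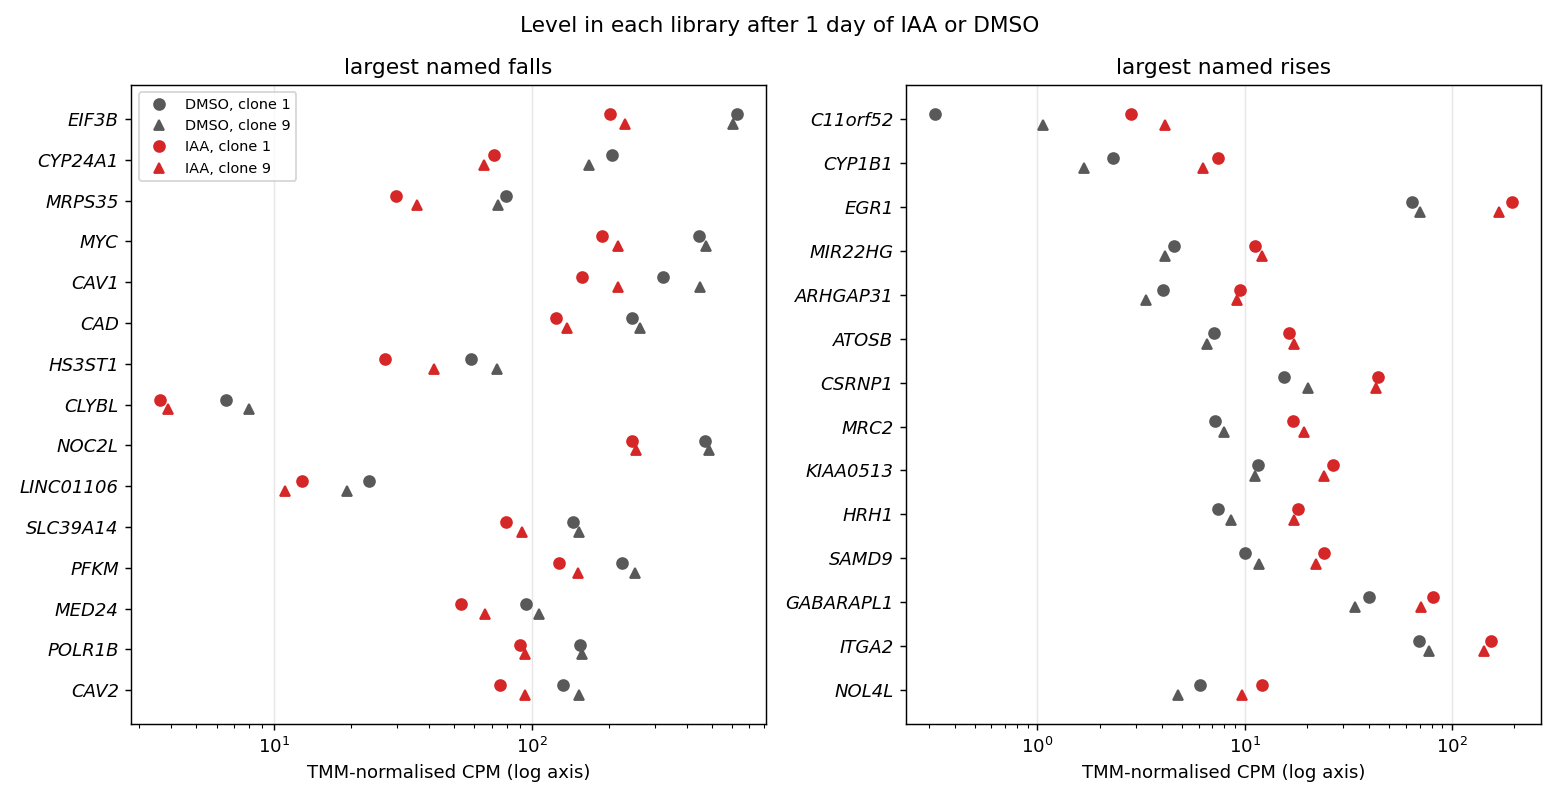
TMM-normalised CPM (log axis) in each of the 4 libraries for called genes with the largest falls (left) and rises (right). Grey marks DMSO and red IAA, circles are clone 1 and triangles clone 9, and in each gene shown the red and grey symbols do not overlap in range.

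Translation initiation was represented by the fall with the lowest p. EIF3B, at chr7:2354086-2380745 in RefSeq GRCh38.p14, encodes a scaffold subunit of eIF3, the complex that brings the initiator tRNA complex and mRNA to the small ribosomal subunit. It read 626 and 606 CPM in the DMSO libraries of clones 1 and 9, and 201 and 230 CPM in the IAA libraries. Both IAA libraries lay far below both controls, and EIF3B fell by 1.52 ± 0.15 on the log2 scale (edgeR adjusted p = 2.13e-05). It passed in all 12 alternative fits, and with each library left out its edgeR adjusted p was 0.000317 to 0.00816. GABARAPL1 was the only other of the 107 genes that passed in all 12.

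The fall of EIF3B was uneven with the rest of its complex. In TPM, which correct for transcript length, EIF3B ranked 4 of 13 eIF3 subunits in the DMSO library of clone 1 (367 TPM) and 6 of 13 in that of clone 9 (330 TPM). It ranked 13 of 13 in both IAA libraries, at 129 and 137 TPM. The median of the other 12 subunits was 247 and 243 TPM with DMSO, and 228 and 218 TPM with IAA. Of the 13 subunits, 1 fell and 0 rose, beside falls in 0.212% and rises in 0.355% of all genes tested. In both IAA libraries 12 were lower, with a median log2 change of -0.19 beside 0.01 over all genes tested. The list's median level was 315 CPM, and genes of at least 300 CPM were lower in both for 67.6%. EIF3L came next, at 349 and 328 CPM with DMSO and 240 and 252 CPM with IAA, a log2 change of -0.46 ± 0.11 that missed the threshold (edgeR adjusted p = 0.0612).

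Of 30 other translation factors tested, 0 were called and 24 were lower in both IAA libraries, beside 67.6% of genes of at least 300 CPM, and the list's median level was 416 CPM. PABPC4, a cytoplasmic poly(A)-binding protein chosen after its values were seen, read 476 and 538 CPM with DMSO and 352 and 382 CPM with IAA and fell by 0.46 ± 0.09 on the log2 scale (edgeR adjusted p = 0.0181, and 0.253 without the clone term). Among 20 cytoplasmic tRNA synthetases, LARS1, which charges leucine tRNA, was the single call, beside falls in 0.212% of all genes tested. It read 226 and 199 CPM with DMSO and 138 and 129 CPM with IAA, a log2 change of -0.67 ± 0.14 (edgeR adjusted p = 0.0217, and 0.0575 without the clone term). None of the 42 ribosomal protein genes was called by edgeR, while 39 were lower in both IAA libraries and the median log2 change was -0.21. Their median level was 884 CPM, and genes of at least 300 CPM were lower in both for 67.6%. RPL3, with the lowest p of the list, had a log2 difference of -0.29 ± 0.09 (edgeR adjusted p = 0.188).

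Ribosome biogenesis was the list with the lowest median, -0.37. RNA polymerase I transcribes the ribosomal RNA precursor in the nucleolus, where processing and assembly factors build the subunits. Of 46 genes tested, 3 fell (POLR1B, POLR1G and NOC2L) and 0 rose, beside falls in 0.212% and rises in 0.355% of all genes tested. In both IAA libraries 44 were lower, against 25.7% of all genes and 40.1% of genes of 100 to 300 CPM. That band holds the list's median level of 157 CPM. NOC2L, a nucleolar factor of large-subunit maturation, read 472 and 487 CPM with DMSO and 246 and 254 CPM with IAA, a fall of 0.94 ± 0.15 on the log2 scale (edgeR adjusted p = 0.00426). POLR1B, the second-largest subunit of polymerase I, read 154 and 157 CPM with DMSO and 90.1 and 94.1 CPM with IAA (log2 change -0.75 ± 0.11, edgeR adjusted p = 0.00187). POLR1G, another subunit of the enzyme, read 103 and 103 CPM with DMSO and 59.3 and 64.7 CPM with IAA (log2 change -0.74 ± 0.11, edgeR adjusted p = 0.00174). The controls of all 3 genes were alike in the 2 clones, and the IAA libraries lay well below them. MDN1 and PDCD11, ribosome assembly factors outside the list and chosen after their values were seen, fell by 0.62 ± 0.13 and 0.62 ± 0.14 on the log2 scale (edgeR adjusted p = 0.0322 and 0.0476, and 0.0599 and 0.347 without the clone term).

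Falls of growth genes raised the question of which promoters hold CACGTG, the canonical E-box bound by MYC with MAX and by related factors. The 250 bases before each RefSeq start (GRCh38.p14) were searched on both strands, for the 12138 of 18877 tested genes that have an entry. CACGTG stood in 11.0% of all of these promoters, in 7 of 31 falls (22.6%) and in 3 of 57 rises (5.26%). Stretches of 30 bases around matches are shown on the gene's strand, with the match in capitals, for 4 falls of ribosome and one-carbon genes (POLR1G at chr19:45406614-45406643, MDN1 at chr6:89819932-89819961, MTHFD1 at chr14:64388323-64388352 and MTHFD1L at chr6:150866320-150866349), for the more start-proximal of 2 matches in the fall UNG (chr12:109098113-109098142) and, as a contrast, for the rise NEU1 (chr6:31862930-31862959).
POLR1G: gccctacccctttggatcCACGTGgtctgc
MDN1: tttctgtcccacCACGTGctgtgttcgcga
MTHFD1: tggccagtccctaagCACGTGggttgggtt
MTHFD1L: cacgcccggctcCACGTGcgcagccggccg
UNG: ccgcgaaaagacCACGTGgggacgcggtgg
NEU1: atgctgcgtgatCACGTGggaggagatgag
The other falls with a match were EEF2K and PDCD6IP, and the other rises were KIAA0513 and KIAA1217. The remaining 24 falls with an entry held no CACGTG in this window, and a match is only a description of the letters.

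MYC itself, the transcription factor of growth and ribosome genes, fell. It read 448 and 473 CPM with DMSO and 187 and 217 CPM with IAA in clones 1 and 9. Both controls stood far above both treated libraries, and the log2 change was -1.19 ± 0.16 (edgeR adjusted p = 0.000468, and 0.0844 without the clone term). Of 19 tested genes of the MYC network, MYC was the only call, beside falls in 0.212% of all genes tested. The list's median log2 change was -0.17. In both IAA libraries 9 (47.4%) were lower and 2 (10.5%) higher, beside 25.7% and 27.3% of all genes tested. The list's median level was 83.6 CPM, and of genes of 50 to 100 CPM 33.2% were lower and 32.6% higher.

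Mitochondrial translation held the third-deepest fall. MRPS35, a protein of the small mitochondrial ribosomal subunit, read 79.3 and 74 CPM with DMSO and 29.8 and 36 CPM with IAA. Its log2 change was -1.22 ± 0.15 (edgeR adjusted p = 0.0004). With each library left out in turn the edgeR adjusted p was 0.00916 to 0.101, the last without the IAA library of clone 1. It was the only call among 67 mitochondrial ribosomal proteins, beside falls in 0.212% of all genes tested. Of these 67, 56 were lower in both IAA libraries, with a median log2 change of -0.22 at a median level of 64.2 CPM. Genes of 50 to 100 CPM were lower in both for 33.2% and higher in both for 32.6%. TRAP1, the mitochondrial HSP90, named after its values were seen, and DNAJA3, a mitochondrial HSP40, fell by 0.64 ± 0.11 and 0.65 ± 0.14 on the log2 scale (edgeR adjusted p = 0.00815 and 0.0369, and 0.124 and 0.15 without the clone term). HSPE1, another mitochondrial chaperone, did not pass (log2 difference -0.55, edgeR adjusted p = 0.164). PHB2, a prohibitin of the inner membrane, fell by 0.44 ± 0.10 on that scale (edgeR adjusted p = 0.0387, and 0.11 without the clone term). Among 38 nuclear genes of oxidative phosphorylation and 15 mitochondrially encoded genes, 0 were called, with medians of -0.15 and -0.15. The mitochondrially encoded list differed between clones, with a median of -0.25 in clone 1 and -0.01 in clone 9.

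Nucleotide and one-carbon metabolism supplied further falls. CAD, the enzyme of the first 3 steps of pyrimidine synthesis, read 245 and 264 CPM with DMSO and 124 and 137 CPM with IAA, a log2 change of -0.96 ± 0.13 (edgeR adjusted p = 0.000963). CAD was the single call among 23 nucleotide synthesis genes, beside falls in 0.212% of all genes tested. Of these 23, 21 were lower and 0 higher in both IAA libraries, with a median of -0.29. Of all genes 25.7% were lower in both, and 40.1% of genes of 100 to 300 CPM, the band of the list's median level of 151 CPM. MTHFD1 and MTHFD1L, folate enzymes of the cytosol and of mitochondria, were the 2 falls among 18 genes of serine, one-carbon and asparagine metabolism. Of these 18, 12 (66.7%) were lower and 2 (11.1%) higher in both IAA libraries, with a median of -0.26. Their median level was 146 CPM, and of genes of 100 to 300 CPM 40.1% were lower and 25.3% higher. MTHFD1 read 291 and 279 CPM with DMSO and 199 and 190 CPM with IAA (log2 change -0.55 ± 0.12, edgeR adjusted p = 0.033, and 0.0637 without the clone term). MTHFD1L read 170 and 178 CPM with DMSO and 115 and 124 CPM with IAA (log2 change -0.54 ± 0.10, edgeR adjusted p = 0.00864). UNG, the glycosylase that removes uracil from DNA, read 156 and 142 CPM with DMSO and 96.3 and 90.8 CPM with IAA (log2 change -0.67 ± 0.15, edgeR adjusted p = 0.0443, and 0.058 without the clone term).

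These metabolic genes resembled EIF3B across the degron line. Over the mean log2 CPM of the 12 degron groups, which include the 4-day, 6-day and MAVS-knockout groups, the called genes with the highest Pearson correlation with EIF3B were MTHFD1 (0.988), UNG (0.974), DNAJA3 (0.964), CAD (0.955) and PHB2 (0.952). The groups share clones and treatments, and the genes were chosen among those called at 1 day, so these are descriptions.

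The remaining large falls came from varied functions. CYP24A1, the enzyme that inactivates vitamin D hormone, read 204 and 168 CPM with DMSO and 71.2 and 65.2 CPM with IAA (log2 change -1.44 ± 0.23, edgeR adjusted p = 0.00393, and 0.0637 without the clone term). CAV1, the main coat protein of caveolae, read 324 and 449 CPM with DMSO and 158 and 216 CPM with IAA. The clones differed in level, but each stood at about the same fraction of its own control, and the log2 change was -1.05 ± 0.15 (edgeR adjusted p = 0.00135, and 0.253 without the clone term). Its neighbour CAV2 lies 16.5 kb away on chromosome 7 and fell as well, from 132 and 153 CPM to 75.7 and 94.6 CPM (log2 change -0.74 ± 0.15, edgeR adjusted p = 0.0217, and 0.558 without the clone term). This was 1 of 4 pairs of called genes within 200 kb of each other. STAT3 and ATP6V0A1, 70.4 kb apart on chromosome 17, both rose, and the pairs LIMA1 with LARP4 and MED24 with WIPF2 held 1 rise and 1 fall each. Without the clone term, ATP6V0A1, LIMA1, LARP4 and WIPF2 missed the threshold (edgeR adjusted p = 0.165, 0.465, 0.0668 and 0.0599).

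HS3ST1, a heparan sulfate sulfotransferase, SLC39A14, a zinc and manganese transporter, PFKM, a phosphofructokinase of glycolysis, and MED24, a subunit of Mediator, fell by 0.95 ± 0.16, 0.80 ± 0.12, 0.77 ± 0.12 and 0.77 ± 0.13 on the log2 scale (edgeR adjusted p = 0.00511, 0.00135, 0.00174 and 0.00393). CLYBL, a mitochondrial lyase, fell from 6.5 and 8.01 CPM to 3.62 and 3.88 CPM, and the long non-coding RNA LINC01106 from 23.4 and 19.2 CPM to 12.9 and 11 CPM (edgeR adjusted p = 0.0342 and 0.034). Without the clone term, HS3ST1, SLC39A14, CLYBL and LINC01106 missed the threshold (edgeR adjusted p = 0.359, 0.128, 0.0584 and 0.117).

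Among the rises, the aryl hydrocarbon receptor (AhR) list held 2 calls of 11 tested genes, beside rises in 0.355% of all genes tested. The list's median log2 change was 0.07. Of its genes, 5 (45.5%) were higher and 2 (18.2%) lower in both IAA libraries, beside 27.3% and 25.7% of all genes tested. AhR is a ligand-activated transcription factor that drives xenobiotic-metabolising cytochromes. CYP1B1, one of these cytochromes, read 2.32 and 1.68 CPM with DMSO and 7.48 and 6.3 CPM with IAA (log2 change 1.78 ± 0.38, edgeR adjusted p = 0.0322). AHRR, the receptor's repressor and itself a target, read 17.8 and 21.7 CPM with DMSO and 30.5 and 40.7 CPM with IAA (log2 change 0.84 ± 0.17, edgeR adjusted p = 0.0201). Both rises were present in both clones and missed the threshold without the clone term (edgeR adjusted p = 0.0536 and 0.206). CYP1A1 read 1.93 and 1.98 CPM with DMSO and 5.04 and 4.24 CPM with IAA, and TIPARP 73.7 and 82.3 CPM with DMSO and 116 and 137 CPM with IAA. Neither of these targets, named after their values were seen, passed (edgeR adjusted p = 0.456 and 0.0544). AHR and NQO1 had log2 differences of 0.07 ± 0.17 and -0.14 ± 0.11 (edgeR adjusted p = 1 and 0.912).

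TNGCGTG, the core of the element bound by AhR, was searched in the same way and stood in 7.65% of all promoters searched, in 6 of 57 rises (10.5%) and in 1 of 31 falls (3.23%). One of the 2 RefSeq starts of AHRR has it, in the stretch chr5:321670-321699 shown here with the match in capitals.
AHRR: ggggcgggcggcTCGCGTGccggggtgggg

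An immediate-early gene was among the 3 highest named rises. EGR1, a zinc-finger transcription factor induced by growth factors and stress, read 64.5 and 70.4 CPM with DMSO and 194 and 169 CPM with IAA (log2 change 1.43 ± 0.32, edgeR adjusted p = 0.039, and 0.0537 without the clone term). Of 31 immediate-early genes, EGR1 rose and MYC fell, beside rises in 0.355% and falls in 0.212% of all genes tested. In both IAA libraries 9 (29.0%) were higher and 4 (12.9%) lower, beside 27.3% and 25.7% of all genes tested. The list's median log2 change was 0.06. CSRNP1, a nuclear protein outside that list, rose from 15.6 and 20.2 CPM to 44 and 43 CPM (log2 change 1.28 ± 0.23, edgeR adjusted p = 0.00815). MIR22HG, the host transcript of miR-22, rose from 4.57 and 4.12 CPM to 11.2 and 12.1 CPM (log2 change 1.42 ± 0.26, edgeR adjusted p = 0.00864).

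Several further rises are set side by side here by known role, chosen after their values were seen. No list of autophagy or lysosome genes was tested. GABARAPL1, an ATG8-family protein of the autophagosome membrane, read 40 and 33.9 CPM with DMSO and 80.8 and 71.1 CPM with IAA. Each treated library stood well above the control of the same clone, and the log2 change was 1.04 ± 0.13 (edgeR adjusted p = 0.000395). MAP1LC3B, another ATG8-family protein, read 76.6 and 77.2 CPM with DMSO and 126 and 121 CPM with IAA (log2 change 0.68 ± 0.16, edgeR adjusted p = 0.0443, and 0.0844 without the clone term). The selective autophagy receptors CALCOCO1 and OPTN rose by 0.81 ± 0.15 and 0.74 ± 0.17 on the log2 scale (edgeR adjusted p = 0.0111 and 0.0415, and 0.0218 and 0.0542 without the clone term). NEU1 and IDS, lysosomal hydrolases, rose by 0.75 ± 0.12 and 0.55 ± 0.12, and ATP6V0A1, a subunit of the lysosomal proton pump, by 0.55 ± 0.12 (edgeR adjusted p = 0.00222, 0.0293 and 0.0315, and 0.0277, 0.0379 and 0.165 without the clone term).

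CDH1, the E-cadherin of epithelial junctions, was the only call among 11 tested colon epithelial markers and read 40.6 and 34.8 CPM with DMSO and 61.2 and 49 CPM with IAA (log2 change 0.54 ± 0.10, edgeR adjusted p = 0.0137, and 0.507 without the clone term). Rises made up 0.355% of all genes tested. No list of adhesion or junction genes was tested, and the marker list's median was -0.23. Of the markers, 2 (18.2%) were higher and 5 (45.5%) lower in both IAA libraries, beside 27.3% and 25.7% of all genes tested. ITGA2, an integrin chain of the collagen receptor, rose from 69.4 and 77.2 CPM to 155 and 142 CPM (log2 change 1.01 ± 0.18, edgeR adjusted p = 0.00864, and 0.0524 without the clone term). ITGA5, the fibronectin receptor chain, OCLN, a tight junction protein, and SPINT1, an epithelial protease inhibitor, all named after their values were seen, rose by 0.61 ± 0.14, 0.72 ± 0.15 and 0.67 ± 0.14 on the log2 scale (edgeR adjusted p = 0.0486, 0.0238 and 0.0217, and 0.0637, 0.0397 and 0.211 without the clone term).

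Other large rises were at low levels. C11orf52 read 0.322 and 1.07 CPM with DMSO and 2.83 and 4.12 CPM with IAA, and its log2 change of 2.34 ± 0.52 carried the widest error of the named genes called (edgeR adjusted p = 0.0387, and 0.0637 without the clone term). KIAA0513 rose from 11.6 and 11.2 CPM to 26.6 and 24.2 CPM (log2 change 1.15 ± 0.15, edgeR adjusted p = 0.0004). HRH1, a histamine receptor, rose from 7.47 and 8.62 CPM to 18.1 and 17.3 CPM, MRC2, an endocytic collagen receptor, from 7.21 and 8.01 CPM to 17.2 and 19.3 CPM, and ARHGAP31, a regulator of small GTPases, from 4.06 and 3.35 CPM to 9.46 and 9.15 CPM (edgeR adjusted p = 0.00815, 0.032 and 0.0496). ATOSB and NOL4L rose by 1.30 ± 0.25 and 1.00 ± 0.19 on the log2 scale (edgeR adjusted p = 0.0181 and 0.0102). MRC2, ARHGAP31 and NOL4L missed the threshold without the clone term (edgeR adjusted p = 0.252, 0.0668 and 0.0902).

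Interferons signal through JAK kinases to transcription factors, STAT2 among them, that bind interferon-stimulated response elements. Of 72 interferon-stimulated genes tested, 2 rose, STAT2 and SAMD9, and 0 fell, beside rises in 0.355% and falls in 0.212% of all genes tested. STAT2 read 40 and 39.2 CPM with DMSO and 63.8 and 59.8 CPM with IAA (log2 change 0.64 ± 0.12, edgeR adjusted p = 0.00975, and 0.0637 without the clone term). SAMD9, an antiviral translation inhibitor, read 10 and 11.7 CPM with DMSO and 24.2 and 22.1 CPM with IAA (log2 change 1.08 ± 0.24, edgeR adjusted p = 0.034, and 0.113 without the clone term). Across the list 41 genes (56.9%) were higher and 9 (12.5%) lower in both IAA libraries, with a median log2 change of 0.23. The list's median level was 8.92 CPM, and of genes at 1 to 10 CPM 25.4% were higher and 19.5% lower.

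ISG15, IFIT1, IFI6 and RIGI, chosen after their values were seen, were not called at 1 day. ISG15 read 29.9 and 28.1 CPM with DMSO and 31.5 and 30 CPM with IAA, and IFIT1 read 2.83 and 2.13 CPM with DMSO and 2.66 and 2.61 CPM with IAA (edgeR adjusted p = 1 for both). IFI6 read 5.22 and 4.04 CPM with DMSO and 6.4 and 5.76 CPM with IAA, and RIGI, a sensor of viral RNA, read 7.41 and 3.89 CPM with DMSO and 7.48 and 7.46 CPM with IAA (edgeR adjusted p = 0.845 and 0.825). RIGI was near its control in clone 1 and above it in clone 9, and IFI6 was above its control in both. IFNB1, IFNA1, IFNA2, IFNK, IFNW1, IFNG and IFNL1 had 0 counts in all 4 libraries. Among 9 tested interferon ligands and receptors, 0 were called, and IFNLR1, a chain of the interferon lambda receptor, had a log2 difference of 0.54 ± 0.20 (edgeR adjusted p = 0.311).

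MAVS, the adaptor of RIG-I-like sensors, read 296 and 326 CPM with DMSO and 346 and 365 CPM with IAA, a log2 change of 0.19 ± 0.16 (edgeR adjusted p = 0.915). TRIM38, a regulator of innate signalling, and STAT3, a cytokine-activated transcription factor, both outside the lists and named after their values were seen, rose by 0.84 ± 0.17 and 0.59 ± 0.10 on the log2 scale (edgeR adjusted p = 0.0272 and 0.00815, and 0.11 and 0.0153 without the clone term). In DNA sensing, antigen presentation and NF-kB and cytokine lists, 0 of 13, 20 and 28 tested genes were called, with medians of 0.08, 0.16 and 0.13. HLA-E, a non-classical class I molecule, came closest, at 102 and 110 CPM with DMSO and 139 and 143 CPM with IAA (log2 change 0.40 ± 0.10, edgeR adjusted p = 0.0541).

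GAAA, any 2 bases and GAAA again, the core of the interferon-stimulated response element, was searched on both strands in the same windows and stood in 3.32% of all promoters searched, in 2 of 57 rises (3.51%) and in 3 of 31 falls (9.68%). SAMD9 was 1 of the 2 rises, and its stretch at chr7:93118096-93118125 is shown on the gene's strand with the match in capitals.
SAMD9: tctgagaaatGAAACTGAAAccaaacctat

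DNA damage and proliferation genes gave 0 calls at 1 day. p53 halts the cell cycle after DNA damage and induces CDKN1A and MDM2. CDKN1A read 202 and 235 CPM with DMSO and 215 and 231 CPM with IAA, a log2 difference of 0.03 ± 0.24, and MDM2 read 213 and 228 CPM with DMSO and 219 and 233 CPM with IAA, a difference of 0.04 ± 0.13 (edgeR adjusted p = 1 for both, named after their values were seen). The 40 tested p53 targets had a median of -0.02, with 7 higher and 12 lower in both IAA libraries. Of all genes tested 27.3% were higher and 25.7% lower. Of genes of 10 to 50 CPM, the band of the list's median level, 35.6% were higher and 26.8% lower. Among 16 genes of Ku, DNA-PK and end joining the median was -0.08. XRCC6, the gene of Ku70, and PRKDC, the gene of DNA-PKcs, had log2 differences of -0.25 ± 0.13 and -0.23 ± 0.14 (edgeR adjusted p = 0.615 and 0.772). Of 27 homologous recombination, Fanconi and alternative end-joining genes, 15 (55.6%) were lower in both IAA libraries (median -0.11). Of 18 damage signalling genes, 11 (61.1%) were lower in both (median -0.14). The median levels of these lists were 52.8 and 74.5 CPM, and 33.2% of genes of 50 to 100 CPM were lower in both.

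The 56 cell cycle and E2F genes had a median log2 change of -0.16. Of these, 39 (69.6%) were lower and 5 (8.93%) higher in both IAA libraries, beside 25.7% and 27.3% of all genes tested. The list's median level was 123 CPM, and of genes of 100 to 300 CPM 40.1% were lower and 25.3% higher. HELLS, a chromatin remodeller of S phase, came nearest to a call, at 159 and 155 CPM with DMSO and 94.9 and 102 CPM with IAA (log2 change -0.67 ± 0.16, edgeR adjusted p = 0.0612). MCM2, a subunit of the replicative helicase, had a log2 difference of -0.42 ± 0.15 (edgeR adjusted p = 0.276). In limma on log2(TPM + 1) this list's median was -0.02 while that of all genes was 0.09, so its distance from all genes was smaller than in CPM.

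**Figure D3:**
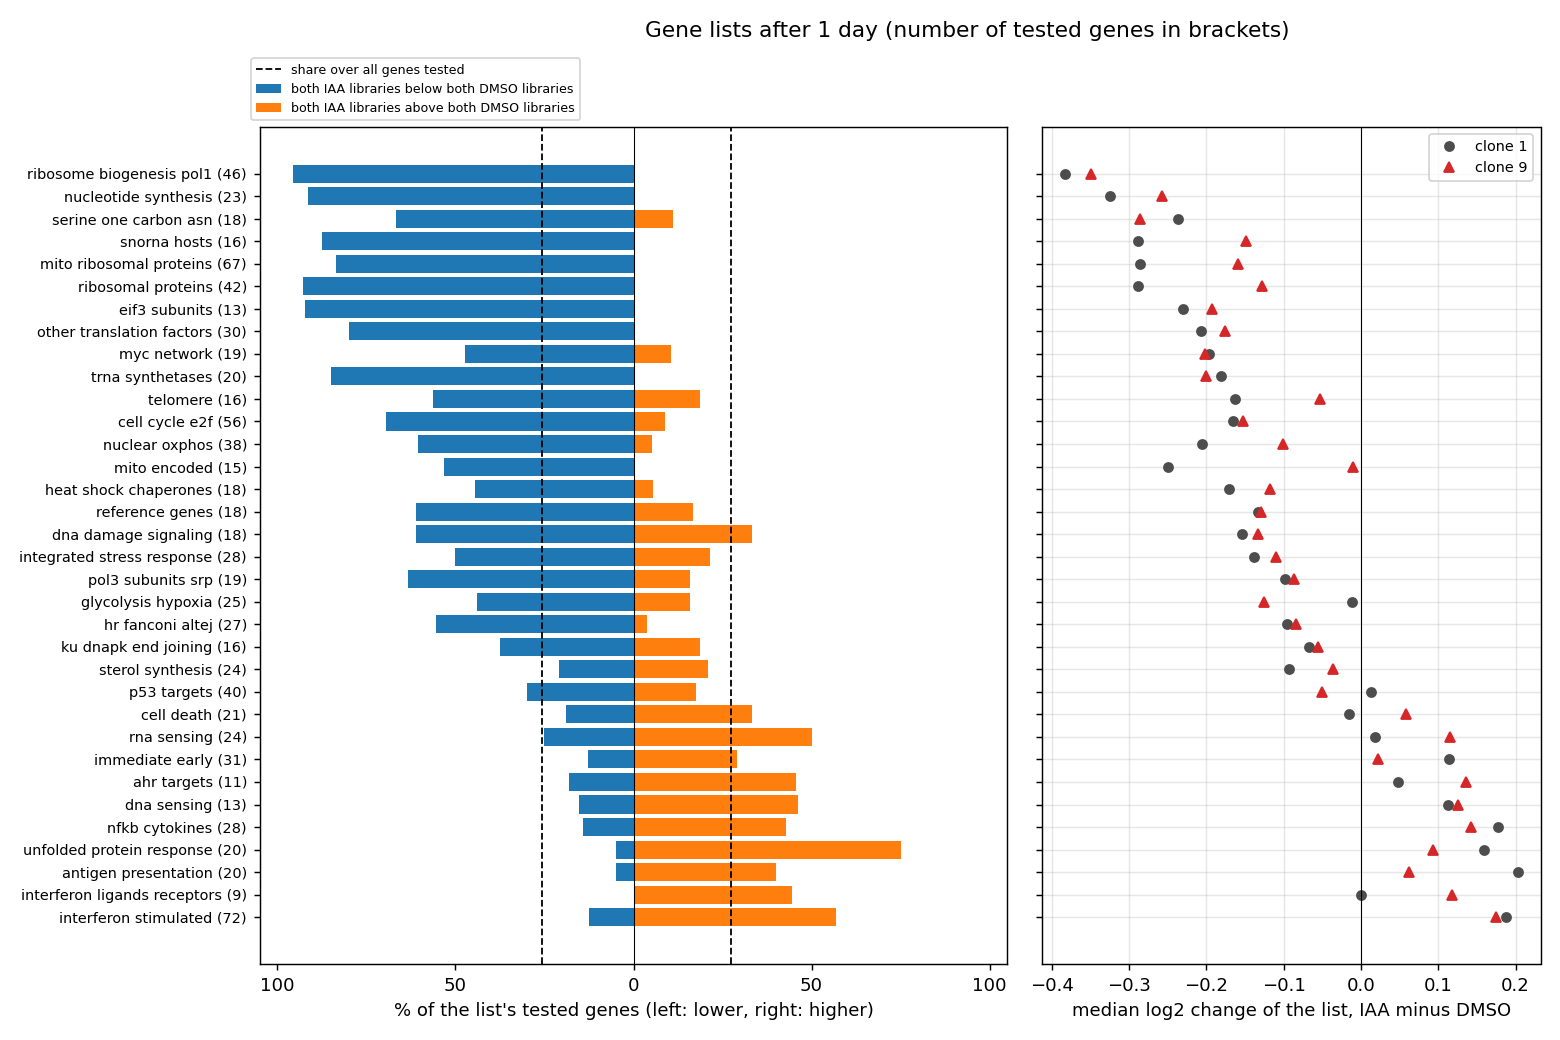
Left, the percentage of each list's tested genes whose IAA libraries both lay below (blue) or both above (orange) both DMSO libraries, with dashed lines at the shares over all genes tested, 25.7% and 27.3%. Right, the list's median log2 difference in clone 1 (circles) and clone 9 (triangles). The lists of ribosome biogenesis, nucleotide synthesis, ribosomal proteins, eIF3 subunits and other translation factors have no gene on the orange side. The same holds for tRNA synthetases, mitochondrial ribosomal proteins, mitochondrially encoded genes and snoRNA hosts. On the orange side the unfolded protein response list has 75.0% and the interferon-stimulated list 56.9%.

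Stress lists gave 0 calls. The integrated stress response lowers translation through eIF2 phosphorylation and ATF4. Of 28 tested genes of this response, 6 (21.4%) were higher and 14 (50.0%) lower in both IAA libraries (median -0.13). Of all genes tested 27.3% were higher and 25.7% lower. The list's median level was 40.2 CPM, and of genes of 10 to 50 CPM 35.6% were higher and 26.8% lower. DDIT4, an mTORC1 inhibitor of this list, read 61.3 and 46.2 CPM with DMSO and 33.9 and 27.8 CPM with IAA (log2 change -0.79 ± 0.25, edgeR adjusted p = 0.201). The 20 genes of the unfolded protein response had a median of 0.14, with 15 (75.0%) higher and 1 (5.0%) lower in both. Their median level was 76.9 CPM, and of genes of 50 to 100 CPM 32.6% were higher and 33.2% lower. DNAJC3, an endoplasmic reticulum co-chaperone, was the member with the lowest p (log2 change 0.45 ± 0.16, edgeR adjusted p = 0.292). Heat shock chaperones had a median of -0.15 and FKBP4, a co-chaperone of HSP90, had a log2 difference of -0.40 ± 0.11 (edgeR adjusted p = 0.109). The 18 genes often used as references had a median of -0.15 with 11 (61.1%) lower and 3 higher in both IAA libraries, beside 67.6% lower among genes of at least 300 CPM, and 0 were called. TFRC, the transferrin receptor, was the member with the lowest p, with a log2 difference of -0.53 ± 0.16 (edgeR adjusted p = 0.164).

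Among the lists with 0 calls, the members with the lowest p varied in direction. The snoRNA host list had a median of -0.23, with SNHG3 at -0.27 ± 0.10, and polymerase III and signal recognition particle genes one of -0.13, with POLR3G at -0.48 ± 0.20 on the log2 scale (edgeR adjusted p = 0.325 and 0.425). Telomere genes had a median of -0.17, sterol synthesis genes of -0.05, glycolysis and hypoxia genes of -0.13 and cell death genes of 0.01. CYP51A1, an enzyme of cholesterol synthesis, had a log2 difference of -0.59 ± 0.19 (edgeR adjusted p = 0.217). NDRG1, a hypoxia-responsive gene, had a log2 difference of 0.67 ± 0.23 (edgeR adjusted p = 0.255).

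A fit of only 8 libraries, those of the 1-day groups and of the 2-day inhibitor groups, whose titles give hours and whose spread was smaller, called 1509 rises (9.02%) and 1829 falls (10.9%). In that fit 42 of 46 ribosome biogenesis genes, 29 of 42 ribosomal protein genes and 18 of 23 nucleotide synthesis genes fell and 0 of them rose, and 24 cell cycle genes fell and 1 rose. Of the 61 interferon-stimulated genes it tested, 21 rose and 1 fell. Its biological coefficient of variation was 5.477%, on 3 residual degrees of freedom, against 19.48% on 16 in the fit of all 32 degron libraries.

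The response at 1 day was next set against that at 2 days of IAA, measured in libraries that share clones with the 1-day groups but no control. At 2 days 1953 genes rose (10.3%) and 2073 fell (11.0%). All 107 genes called at 1 day had the same sign at 2 days, 103 of them were called in the same direction, and 82 had a larger absolute change. Over the 9996 genes of at least 10 CPM, 78.8% had the same sign and the changes correlated at r = 0.703, given as a description across genes. The size of the change itself differed between 1 and 2 days for 44 genes (0.233% of genes tested) in edgeR's test of the difference, with a 1-day minus 2-day value above 0 for 30 (0.159%) and below 0 for 14 (0.0742%). Every one of the 44 was called at 2 days with a larger absolute change than at 1 day, and 3 (EIF3B, MTHFD1 and ZFAND3) were also called at 1 day.

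Replication genes made up much of this difference. Of the 44 genes, 14 were among the 56 cell cycle and E2F genes, a list in which 54 fell at 2 days with a median log2 change of -1.09. PCNA, the sliding clamp of DNA polymerases, had log2 differences of -0.27 ± 0.11 at 1 day and -1.09 ± 0.09 at 2 days (adjusted p of the difference 0.0195 in edgeR). MCM4 and MCM2, subunits of the replicative helicase, had log2 differences of -0.28 and -0.42 at 1 day and of -1.35 and -1.35 at 2 days (adjusted p of the difference 0.0195 and 0.0428 in edgeR). CCNE2, the cyclin E2 of S-phase entry, read 20.5 and 27 CPM with DMSO and 27.6 and 32.9 CPM with IAA at 1 day (log2 difference 0.36 ± 0.21), and its log2 difference at 2 days was -1.02. At 2 days EIF3B had a log2 change of -2.65 ± 0.13. MTHFD2 and PAICS, enzymes of mitochondrial folate metabolism and purine synthesis named after their values were seen, went from -0.54 and -0.39 at 1 day to -1.63 and -1.23 at 2 days.

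In the other direction, CEMIP, a hyaluronan-degrading factor, read 1.8 and 0.915 CPM with DMSO and 4.36 and 3.39 CPM with IAA at 1 day. Its log2 change was 1.51 ± 0.38 at 1 day (edgeR adjusted p = 0.0735) and 4.67 at 2 days (adjusted p of the difference 0.0195 in edgeR). NT5E, the ectonucleotidase CD73, had log2 differences of 0.18 ± 0.16 at 1 day and 1.42 at 2 days, and CTSB, a lysosomal protease, of 0.41 ± 0.11 and 1.19. Without the clone term 0 of the 44 differences passed (1210 genes at an unadjusted p below 0.05), and at most 1 gene passed when a 1-day library was left out.

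**Figure D4:**
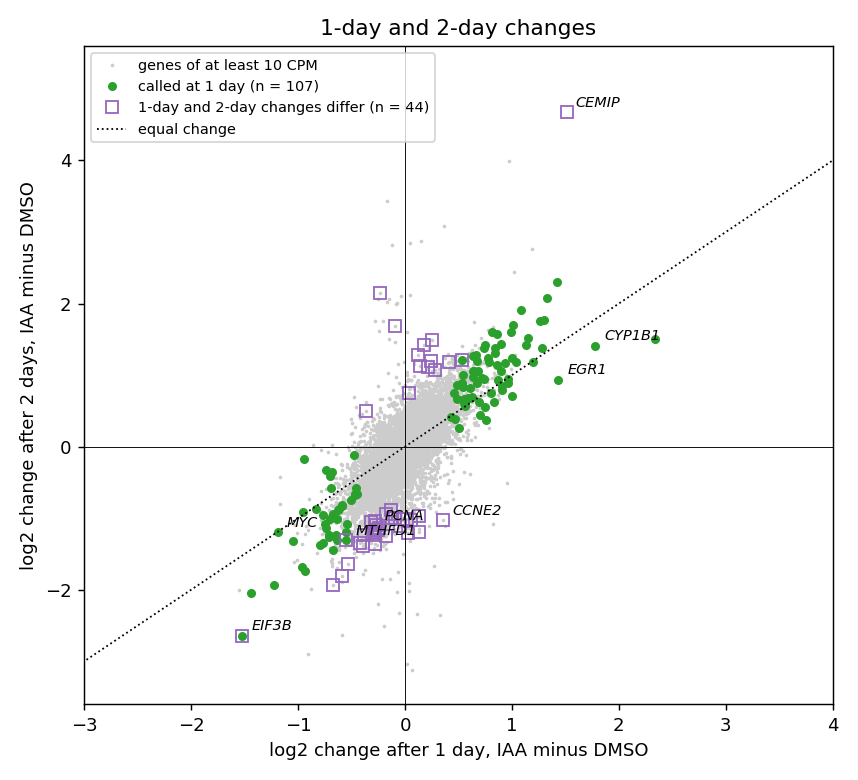
The fitted log2 change after 1 day (horizontal) is plotted against that after 2 days (vertical). Green points are the 107 genes called at 1 day, purple squares the 44 genes whose 2 changes differ, grey points genes of at least 10 CPM, and the dotted line marks equal change. The green points keep their sign, and the purple squares lie farther from 0 on the vertical axis than on the horizontal.

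A CDK4/6 inhibitor holds cells in G1, and inhibitor-treated cells given IAA for 2 days provided a comparison in the same 2 clones. Against the inhibitor alone, 104 genes rose (0.551%) and 61 fell (0.323%). All 107 genes called at 1 day without the inhibitor had the same sign there, 52 were called in that direction and 23 had a larger change. Sharing a sign was common, since 75.5% of the 9996 genes of at least 10 CPM did so (r = 0.689, a description across genes). The test of the difference between the response on the inhibitor and the 1-day response called 0 genes (0.0%) in edgeR, with 222 at an unadjusted p below 0.05. It called 5 in DESeq2 and 0 in limma. A p that misses the threshold does not show that the responses were alike. EIF3B had a log2 change of -1.44 ± 0.15 with the inhibitor against -1.52 ± 0.15 at 1 day, a difference of -0.08 ± 0.21 on the log2 scale. HS3ST1 had log2 differences of -0.22 ± 0.16 with it and -0.95 ± 0.16 at 1 day, and EGR1 of 0.46 ± 0.31 and 1.43 ± 0.32.

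In the Ku86flox/- cells, Ku80 was lost by Cre recombination over 4 days, and 4362 of 16462 genes rose (26.5%) and 4576 fell (27.8%) in 4-hydroxytamoxifen against ethanol. Of the 67 genes that rose after 1 day of IAA, 40 rose and 14 fell in these cells, and of the 40 that fell, 19 fell and 9 rose. The 2 systems differ in time, clone, agent and fit, and the difference between them was not tested. Over genes of at least 10 CPM the changes correlated at r = 0.136, and 55.6% had the same sign.

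EIF3B, CAD and MTHFD1 fell in the Cre cells too, by 0.96 ± 0.05, 0.57 ± 0.05 and 0.96 ± 0.05 on the log2 scale. SAMD9 and STAT2 rose by 2.32 and 0.88, and GABARAPL1 by 0.51. In contrast, MYC and CYP24A1, both down after IAA, rose by 0.36 and 0.62 in the Cre cells, POLR1B rose by 0.35, and MRPS35 had a log2 difference of -0.15 (edgeR adjusted p = 0.0917). The rises EGR1, CYP1B1, CSRNP1 and MRC2 had the opposite direction there, with log2 changes of -2.60, -0.98, -0.81 and -0.90. CYP1A1, the AhR target, fell by 1.78 on the log2 scale in Cre cells. Cells without Cre were given the same agents, and the change in Cre cells minus that in cells without Cre tests what Cre adds. This difference was -0.77 ± 0.10 for EGR1, -1.28 ± 0.39 for CYP1B1, -1.15 ± 0.09 for MRC2 and -2.59 ± 0.43 for CYP1A1 on the log2 scale (edgeR adjusted p = 5.85e-05, 0.0193, 2.82e-07 and 0.000338). For CSRNP1 it was 0.32 ± 0.16 (edgeR adjusted p = 0.123), which did not pass. EIF3B, MTHFD1 and CAD had differences of -0.86 ± 0.07, -0.95 ± 0.07 and -0.33 ± 0.07, SAMD9, STAT2 and GABARAPL1 of 1.91 ± 0.19, 0.80 ± 0.07 and 0.74 ± 0.08, and MYC, CYP24A1 and POLR1B of 0.55 ± 0.07, 0.42 ± 0.07 and 0.37 ± 0.08. The highest edgeR adjusted p of these 9 was that of CAD (0.00256).

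**Figure D5:**
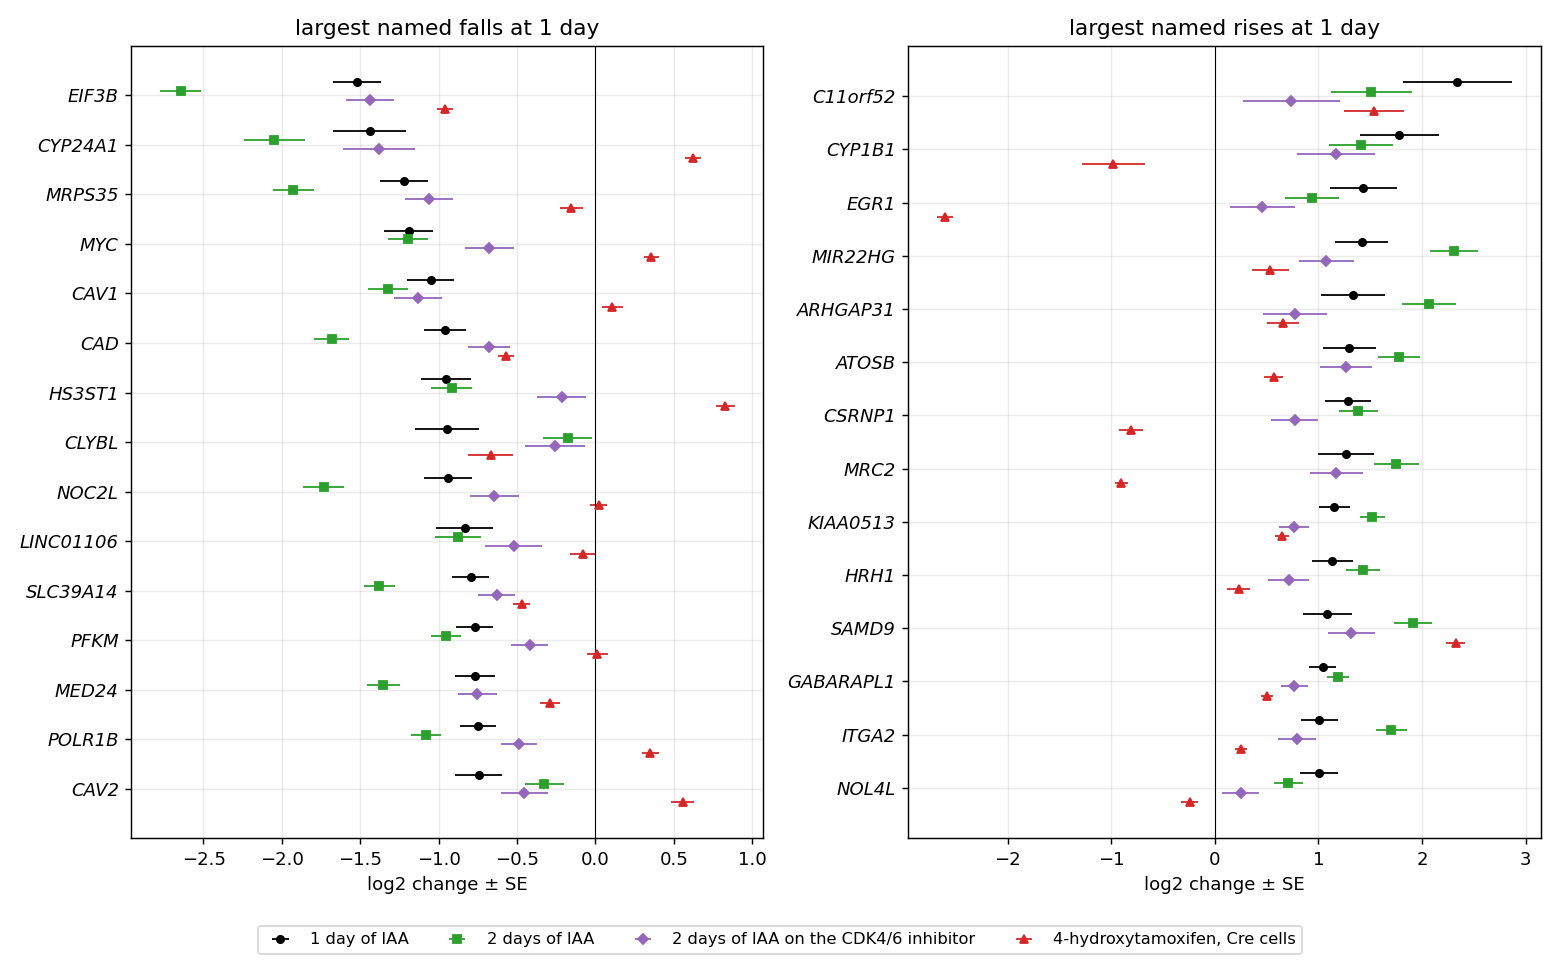
Fitted log2 changes with their standard errors for the largest named falls (left) and rises (right) at 1 day. Black circles show 1 day of IAA, green squares 2 days, purple diamonds 2 days on the CDK4/6 inhibitor and red triangles 4-hydroxytamoxifen in Cre cells. The black, green and purple symbols share a side of 0 in each gene shown, while red triangles lie on the other side for several genes, MYC, CYP24A1, EGR1 and CYP1B1 among them.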

How the data were processed

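RNA was taken with TRIzol and sequenced as poly(A) RNA, per the labels' protocols. The authors deposited estimated counts and TPM per gene (TPM are scaled to transcript length and to 1 fixed sum per library), both for 61228 genes. The build was GRCh38, and kallisto 0.50.0, Salmon 1.10.2 and DESeq2 are listed as tools, per the submitters' processing notes. Not given in the sources used here were the tool behind each table, strand use and the handling of reads shared by copies of a gene, so genes with near-identical copies or antisense partners are uncertain.

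The deposited estimated counts were rounded and tested with edgeR 4.0.16 (R 4.3.3). All 32 degron libraries, in 12 groups, entered a quasi-likelihood fit with group and clone as terms, TMM factors and filterByExpr, which left 18877 genes. The shared fit was chosen because 2 libraries a group give little estimate of spread. Calls had a Benjamini-Hochberg adjusted p below 0.05 over all genes tested, and SE was the absolute log2 change divided by the square root of F. CPM were TMM-normalised in the main fit, except for the marker counts and sums, which used raw library totals. Per-clone log2 differences used log2(CPM + 0.5). The Cre cells were fitted apart. The same clones stood in both arms, per the labels, and the deviations of same-clone libraries correlated at 0.1955. Replicate libraries differed beyond counting noise (chi-square per degree of freedom 7.037 and 4.851). The labels name clones but no separate cultures, so p-values measure the spread between these libraries, which may be technical. Totals of 14517500 to 18165300 counts set the precision.

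Alternatives were limma 3.58.1 run on the deposited TPM as log2(TPM + 1), DESeq2 1.42.0, a fit with all genes unfiltered, RLE factors, no clone term, fits of 4 or 8 libraries and leaving out each library. The scripts were tested on simulated data. Genes were named by rule: the 15 largest called changes each way with a mean of at least 1 CPM that moved the same way in both clones, up to 4 called members each way per list or the 2 members of lowest p, a few fixed genes, and the 5 most like EIF3B. Most others complete a stated set or are said to be chosen after their values were seen. PCNA, MCM4, POLE, CCNE2, CEMIP, NT5E, CTSB, EIF3L, AHR and NQO1 were also chosen after their values were seen. The comparison, the 37 gene lists and the motifs were chosen with earlier results of these data known. Promoter letters came from RefSeq (GRCh38.p14), to which 107 of 107 called genes matched by symbol. CYP1B1 had no promoter entry. The other samples of the series were not used here, and a few genes that the rule names are not reported here.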

Additional observations from a re-analysis of the deposited data

Results flagged for a closer look

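For 44 genes the response after 2 days of IAA differed from that after 1 day in edgeR's test of the difference, and each was larger at 2 days. Differences are given as the 1-day minus the 2-day log2 change, so a positive value marks a deeper fall or a smaller rise at 2 days. EIF3B and MTHFD1, already called down at 1 day, differed by 1.12 and 0.76. The replication genes HELLS, MCM2, PCNA, MCM4 and POLE differed by 1.26, 0.933, 0.822, 1.07 and 0.943, and CCNE2 by 1.38. The folate and purine enzymes MTHFD2 and PAICS differed by 1.1 and 0.842. On the rising side CEMIP differed by -3.16, NT5E by -1.25, CTSB by -0.778 and ZFAND3, which was called up at 1 day, by -0.675. All of these differences missed the threshold without the clone term, where 0 genes passed. The 1-day libraries are of clones 1 and 9 and the 2-day libraries also of clone 7, and the part of that in the differences was not tested.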

How the results depend on the processing

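Most choices tried moved the count of 1-day calls by more than 1.5 times, and RLE factors did not. The cause was not tested, except that leaving out a library removes data. With no replicate block (no clone term), 35 genes were called at 1 day against 107 with the block, and 0 genes differed between 1 and 2 days against 44. Without a count filter these counts were 205 and 258, in DESeq2 301 and 171, and in limma on log2(TPM + 1) 41 and 6. RLE factors gave 109 and 35. Of the 107 genes, 81 were among the 205 at 1 day, 107 among the 301, 24 among the 41 and 95 among the 109. In limma 15 of the named called genes passed and 48 did not. CAD, MED24 and POLR1B were among those that missed (limma adjusted p = 0.429, 0.859 and 0.545). With only the 4 libraries of 1 day, 3981 genes were called with the block and 1607 with no block, and with the 8 libraries 3338. Leaving out 1 library gave 4 to 8 genes at 1 day and 0 to 1 for the difference from 2 days. The share of rises among 1-day calls was 62.6%, and it was 50.5% with RLE factors, 51.2% without a filter, 48.5% in DESeq2 and 87.8% in limma. For the difference from the inhibitor groups, 0 genes passed, against 25 without a filter and 5 in DESeq2. Among named genes that were called, 426 values under alternatives stayed past the threshold and 330 missed it, with 0 reversed. For named genes that were not called, 202 values passed under alternatives, 662 stayed uncalled and 9 reversed. In DESeq2 19 of these genes passed and 54 did not. RPL3, HELLS, HLA-E, FKBP4 and TFRC were among the 19 (DESeq2 adjusted p = 0.0123, 0.00523, 0.00749, 0.00726 and 0.0393).

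The reversed values all belonged to genes that were not called. In limma POLR3E was 0.0245 and XRCC5 0.0438. The others reversed when 1 library was left out. NEFL was 0.177 without the DMSO library of clone 9 and ranged from -0.829, HBA1 was 0.194 without the IAA library of clone 1 and ranged from -3.24, and IFIT1 was -0.129 without the DMSO library of clone 9 and ranged up to 0.317. CDKN1A was -0.114 without the DMSO library of clone 1 and -0.0562 without the IAA library of clone 9, with 0.17 as its highest value, and MDM2 was -0.0248 and -0.0189, with 0.0876 as its highest. Medians of the glycolysis, stress response, end joining, p53, polymerase III, sterol and telomere lists were above 0 in limma (0.0335, 0.027, 0.0542, 0.102, 0.0266, 0.0833 and 0.00158), where the median of all genes was 0.0851, and that of the cell death list was -0.0116 with RLE factors. Depth limits genes below about 1 CPM, among which 0 were called.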
